A study of Caenorhabditis elegans with 60 samples.

Results

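The vacuolar ATPase is the proton pump of lysosomes, secretory vesicles and some plasma membranes, and its membrane-embedded a subunit decides in which tissue and on which membrane a pump works. Caenorhabditis elegans has 4 genes for this subunit, vha-5, vha-6, vha-7 and unc-32, and they were taken here by their locus identifiers. All 4 were among the 10298 genes of the deposited expression table, and all 4 passed the filter on low values. The measurements came from whole wild-type worms (N2, Bristol), synchronised as first-stage larvae and grown for 48 h in liquid S medium with Escherichia coli HB101. The medium held no HFPO-DA (the control) or HFPO-DA at 1 of 14 concentrations. The lower ones were 0.013, 0.063, 0.31, 1.56, 7.81, 16, 31 and 63 mg/L, given here to 2 or 3 digits, and the upper ones, from the top down, were 4, 2, 1, 0.5, 0.25 and 0.125 g/L. HFPO-DA is hexafluoropropylene oxide dimer acid, the perfluorinated ether acid known as GenX, and the series asked how it affects physiology and transcripts in developing worms. Each of the 15 groups had 4 libraries, each from the pooled worms of 1 culture well, which made 60 libraries of polyadenylated RNA sequenced at shallow depth. The labels name the wells as replicates and do not say that they came from separate cultures, so every p-value here reflects well-to-well spread alone.

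The a subunit carries the half-channels through which protons cross the membrane, while the peripheral V1 sector hydrolyses ATP and turns the proteolipid ring of the V0 sector against it. In C. elegans, VHA-6 sits on the apical membrane of the intestine, where it acidifies the gut lumen and so feeds proton-coupled nutrient uptake and the luminal pH cycle of defecation. VHA-5 is found in the epidermis and the excretory canal, where it takes part in apical secretion of cuticle proteins as well as in osmotic balance. VHA-7 is an epidermal form, and UNC-32 is the form best known from neurons, where the proton gradient drives the loading of transmitters into synaptic vesicles.

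The 4 genes lie apart in the genome. In the WBcel235 annotation, vha-5 (CELE_F35H10.4) spans bases 8303968 to 8307371 on the forward strand of chromosome IV, with 2967 exonic bases. The intestinal gene vha-6 (CELE_VW02B12L.1) spans bases 11435210 to 11438452 on the reverse strand of chromosome II, with 2699 exonic bases. On the forward strand of chromosome IV, vha-7 (CELE_C26H9A.1) spans bases 12640462 to 12650652 and holds 3901 exonic bases in 28 distinct exons. The neuronal gene unc-32 (CELE_ZK637.8) spans bases 8905615 to 8911756 on the forward strand of chromosome III, with 3625 exonic bases and 6 annotated transcripts, which the table does not separate. A short stretch of 57 exonic bases of vha-5 is also covered by F35H10.10 on the opposite strand, and the sources used here do not say whether counting used strand.

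Across all libraries, reads recovered from the deposited values totalled 462117 to 4522107, with a median of 1475652.5. Control libraries held 999346 to 1914706 reads and those at 4 g/L 737039 to 1249951. The intestinal gene was read most, with 84 to 834 reads per library and a median of 290. The other a-subunit genes were thinner, with medians of 56.5 reads for vha-5, 74.5 for vha-7 and 75 for unc-32, and a lowest count of 20 reads. The replicate CV within a group had a median over the 15 groups of 12.6% for vha-6, 14.5% for vha-5, 15.2% for vha-7 and 15.4% for unc-32. Replicate 4 at 4 g/L and replicate 4 at 31 mg/L had a larger residual spread over all genes than the other libraries, and the counts of genes called and the vha-6 change at 4 g/L are given with and without the first of them.

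Unexposed worms carried far more vha-6 transcript than transcript of any other a-subunit gene. The deposited values are read counts scaled by the authors, here called normalised read values. In the 4 control wells vha-6 read 274, 281, 329 and 243 normalised units, a mean of 282 ± 35.5 (SD, n = 4) that lay above 92.7% of all genes. Levels of different genes were compared per kilobase of exon, which assumes reads from the whole transcript, and the sources used here do not say which part the library kit reads. On that scale control levels of vha-6 ran from 90.0 to 122. On the same scale unc-32 ran from 21.2 to 24.9, vha-5 from 17.5 to 23.7 and vha-7 from 15.9 to 27.8. The order thus had vha-6 first, apart from the rest in every control well, and 3 genes behind it whose ranges overlapped. Of the summed level per kilobase of the 4 genes, vha-6 made up 61.4% ± 4.76, unc-32 13.4% ± 0.931, vha-7 12.8% ± 3.51 and vha-5 12.4% ± 1.67 (SD, n = 4).

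At the highest concentration the intestinal a subunit rose, and none of the other 3 passed the test. At 4 g/L the wells read 511, 486, 407 and 655 normalised units of vha-6, a mean of 515 ± 103 (SD, n = 4). All 4 wells lay above all 4 control wells, and the groups did not overlap. The increase was 0.85 ± 0.13 (SE) on the log2(value + 1) scale, 1.81-fold with a 95% interval of 1.5 to 2.18, with an adjusted p of 4.59e-06 in limma over 10293 genes. At this concentration 28.5% of all genes tested passed an adjusted p under 0.05, 14.7% higher and 13.7% lower, so a share of 1 in 4 a-subunit genes is near the background. Of these calls 51.8% were higher, against 64% on recovered reads over size factors and 77.2% with reads thinned to the smallest library. Without control replicate 2 the number of genes called fell from 2932 to 1817, and without replicate 4 at 4 g/L to 1303, which is 12.7% of genes (6.26% higher, 6.40% lower). Of the 1518 genes that rose, 1081 had a larger log2 change than vha-6, and 73 had a smaller p. Without replicate 4 at 4 g/L, the well with the highest vha-6 value and a large residual spread, the log2 increase was 0.73 (limma adjusted p = 0.000241).

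The epidermal and excretory gene vha-5 sat slightly higher at 4 g/L without passing the test. Its control wells read 57.5, 51.8, 69.0 and 70.4 normalised units, and its wells at 4 g/L read 81.0, 85.6, 58.5 and 71.6. In 3 of the 4 exposed wells the value exceeded every control, and the fourth fell inside the control range. The log2 difference was 0.25 ± 0.17 (SE), with a 95% interval from -0.09 to 0.58 and an adjusted p of 0.266 in limma. The overlapping gene on the other strand, F35H10.10, rose over the same contrast from 18.2 ± 3.79 to 33.5 ± 17.2 normalised units (SD, n = 4), a log2 change of 0.71 ± 0.26 (SE) with a limma adjusted p of 0.0390. Its part in the vha-5 values was not tested.

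The second epidermal gene, vha-7, was the most variable in unexposed worms. Its control wells read 89.5, 75.8, 62.0 and 108 normalised units, and its exposed wells at 4 g/L 82.3, 76.7, 81.5 and 70.2. Every exposed value fell inside the control range. The log2 difference was -0.08 ± 0.17 (SE), with a 95% interval from -0.42 to 0.26 and a limma adjusted p of 0.744.

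For the neuronal gene unc-32, control wells read 90.2, 78.5, 83.9 and 76.9 normalised units, and the wells at 4 g/L 92.3, 95.7, 62.8 and 75.5. Exposed values reached above and below the controls. The log2 difference was -0.03 ± 0.16 (SE), with a 95% interval from -0.36 to 0.30 and a limma adjusted p of 0.907. These intervals bound the change of vha-7 at 0.746-fold to 1.19-fold and that of unc-32 at 0.779-fold to 1.23-fold, so an increase of the size seen for vha-6 lay outside both. The sign of these small differences turned with the scaling, to 0.01 for vha-7 and 0.06 for unc-32 on recovered reads over size factors, and no alternative called either gene.

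**Figure D1:**
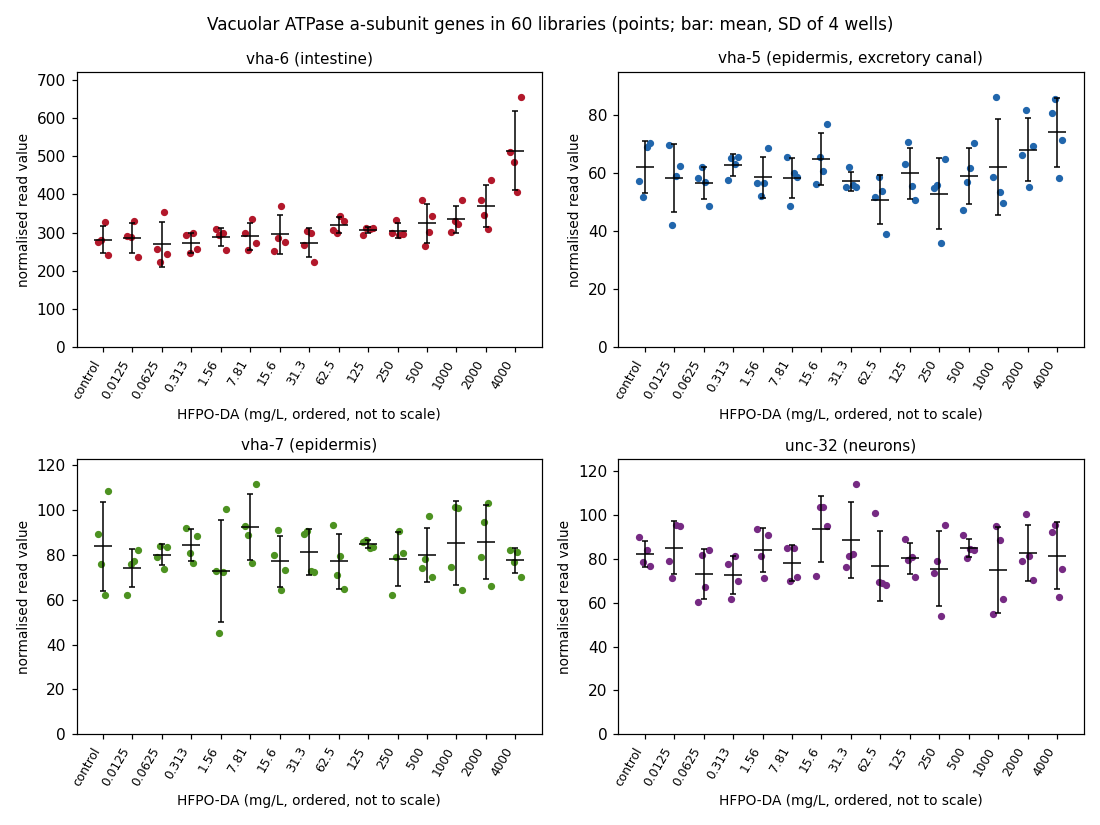
Normalised read value (vertical axis, from 0) of the 4 a-subunit genes at each HFPO-DA concentration in mg/L (horizontal axis, ordered and not to scale); points are the 60 libraries, bars the mean and SD of 4 wells. The wells of vha-6 at 4000 mg/L run from 407 to 655, all above the control wells at 243 to 329, while the other 3 genes overlap their controls at every concentration (4000 mg/L is 4 g/L).

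Below 4 g/L no a-subunit gene passed the test, among 56 contrasts of 4 genes and 14 concentrations. At 2 g/L vha-6 read 386, 346, 309 and 437 normalised units, and 3 of 4 wells lay above every control. The log2 difference from the control was 0.39 ± 0.13 (SE), with an unadjusted p of 0.0057 and an adjusted p of 0.353 in limma, in a contrast that called 0.486% of genes. At 1 g/L the values were 301, 331, 324 and 384, and the log2 difference was 0.25 with an interval from -0.02 to 0.52. It was 0.20 at 0.5 g/L and 0.12 at 0.25 g/L, contrasts that called 0.0194% and 0.00972% of genes. Over the 9 concentrations up to 0.125 g/L, at which no gene was called, group means of vha-6 lay between 270 and 320 normalised units. Log2 differences there ran from -0.08 to 0.19, and unadjusted p-values under 0.05 were reached by 294 to 677 genes per concentration in limma.

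The step from 2 to 4 g/L was 0.47 ± 0.13 (SE, log2) for vha-6, with a limma adjusted p of 0.0221, in a contrast that called 8.65% of genes (4.59% higher, 4.06% lower). This call was lost without replicate 1, 2 or 4 in turn and when reads were thinned to the smallest library (adjusted p = 0.158). The same step was 0.12 for vha-5, -0.13 for vha-7 and -0.03 for unc-32, none of them called.

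Ordered over all 15 groups, vha-6 rose by 0.0403 ± 0.0065 log2 units per concentration step (SE, limma adjusted p = 1.91e-05). Slopes were called for 6.57% of genes (3.80% upward, 2.77% downward), and 23 genes had a smaller p than vha-6. Without the 4 g/L group the slope was 0.0261 with an adjusted p of 0.0124, in a fit that called 0.311% of genes. Without the 2 and 4 g/L groups it was 0.0214 with an adjusted p of 0.521, in a smaller fit that called 0.126% of genes. The call was thus not kept without the 2 highest concentrations, and a rise of vha-6 below them was neither shown nor excluded. The slopes of vha-5 (0.0087, adjusted p = 0.441), vha-7 (0.0027, adjusted p = 0.835) and unc-32 (-0.0007, adjusted p = 0.959) were not called in limma. Measured against concentration in g/L in place of its rank, the slope was 0.20 log2 units per g/L for vha-6 (adjusted p = 1.62e-11) and 0.0867 for vha-5 (adjusted p = 0.00743) in limma. That fit called 49.2% of genes, 24.8% upward and 24.3% downward, so a call there is near the background.

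A larger reference gave narrower errors. No gene was called at the 9 lowest concentrations, so the control and these groups were also pooled as a reference of 40 libraries. Against it vha-6 was higher by 0.82 ± 0.10 (SE, log2) at 4 g/L and by 0.35 ± 0.10 at 2 g/L, with limma adjusted p-values of 5.92e-10 and 0.0493. These contrasts called 48.6% and 1.19% of genes. On this reference vha-5 also passed at 4 g/L, at 0.32 ± 0.12 (95% interval 0.08 to 0.56, limma adjusted p = 0.0234), a call made for 48.6% of genes. The values of vha-7 (-0.04, adjusted p = 0.803) and unc-32 (0.00 after rounding, adjusted p = 0.984) stayed uncalled in limma. All of these contrasts share their reference libraries, and the reference was chosen with the calls known.

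Sample numbers were cut here into 5 consecutive runs of 12, a split that the labels do not give. In the labels the numbers run from 4 g/L down to the control within each replicate number. Of the 5 runs, 3 held 1 control and 1 library at 4 g/L, which carry different replicate numbers. Within them the log2 difference of vha-6, on recovered reads over size factors, was 1.04, 0.60 and 1.12, from 237 against 247, 338 against 222 and 322 against 536 reads in control and exposed wells. All 3 differences were positive, and the third pair holds replicate 4 at 4 g/L. The same differences were 0.63, 0.25 and 0.22 for vha-5, while those of vha-7 (-0.21, 0.12 and 0.22) and unc-32 (0.25, -0.26 and 0.00 after rounding) had mixed signs. With an additive term for the runs, vha-6 rose by 0.95 at 4 g/L with a limma adjusted p of 5.08e-10, and vha-5 differed by 0.37 with an adjusted p of 0.0783. That fit called 27.0% of genes, 18.2% higher and 8.77% lower.

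Between the a subunits, the differences in response passed a test against the pooled reference and not against the 4 control wells. In pairs at 4 g/L, the vha-6 change exceeded that of unc-32 by 0.89, of vha-7 by 0.94 and of vha-5 by 0.61 log2 units. With 4 wells against 4, the smallest exact two-sided permutation p is 0.0286, and after adjustment over the 6 pairs these differences had adjusted p-values of 0.0857, 0.114 and 0.0857, none under 0.05. Against the 40 pooled reference libraries, taken as exchangeable, the same 3 differences were 0.82, 0.86 and 0.50, with exact permutation p-values adjusted over 6 pairs of 0.000177, 0.000663 and 0.00719. The vha-5 change exceeded those of unc-32 by 0.33 (adjusted p = 0.0108) and vha-7 by 0.36 (adjusted p = 0.0252) in the same exact permutation tests. Between vha-7 and unc-32 the difference was -0.04 (adjusted p = 0.790).

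Expressed as shares of their summed level per kilobase, vha-6 held 61.4% of the a-subunit level in controls and 73.5% ± 3.96 (SD, n = 4) at 4 g/L. Without replicate 4 at 4 g/L the difference was 10.2 percentage points, against 12.1 with it. The exposed wells ran from 70.6% to 79.4% and the control wells from 55.3% to 66.2%, without overlap. The shares of unc-32, vha-7 and vha-5 were 8.79%, 7.91% and 9.76% at 4 g/L. Each of the 4 differences had an adjusted p of 0.0571 in the exact permutation test of 4 against 4 wells, which is not under 0.05. Against the 40 pooled libraries, in which vha-6 held 62.7% on average and 54.6% to 71.6% in single wells, the adjusted p was 8.84e-05 for vha-6 and for unc-32, 0.000746 for vha-7 and 0.0256 for vha-5. Single wells of that reference thus reached the lowest shares seen at 4 g/L. Shares sum to 100%, so a higher vha-6 level lowers the other shares without any fall in their own levels. At 2 g/L the vha-6 share was 66.6% ± 5.33 and at 1 g/L 66.3% ± 5.87 (SD, n = 4).

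**Figure D2:**
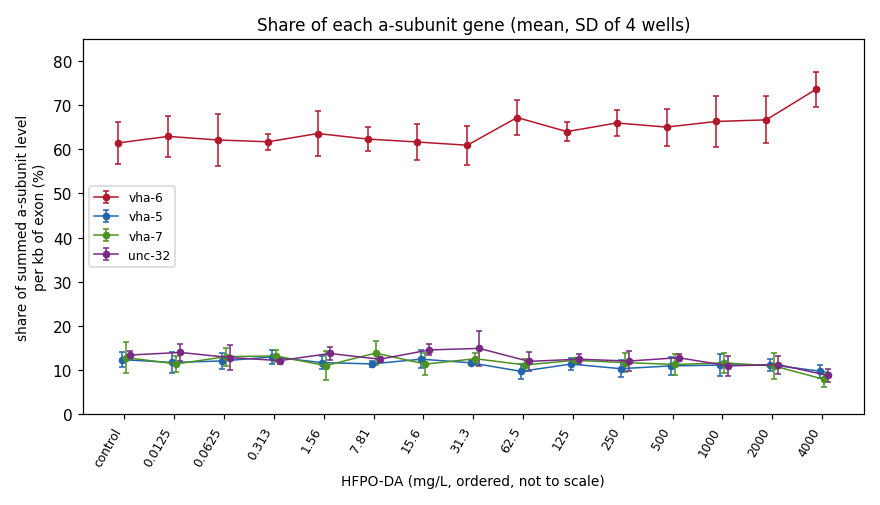
Share of each gene in the summed level per kilobase of exon of the 4 a-subunit genes (vertical axis, percent) at each HFPO-DA concentration (horizontal axis, mg/L, ordered and not to scale); points and bars are the mean and SD of 4 wells. The vha-6 share stands at 61.4% in the control and at 73.5% at 4000 mg/L, and the other 3 genes stay under 15% in every group mean.

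The rest of the pump was measured through 17 further subunit genes, and 8 of them rose at 4 g/L while 0 fell, against 14.7% and 13.7% of all genes. Their log2 changes had a median of 0.38, beside -0.05 for all genes tested, and 16 of 17 were above 0. None of the 17 changed by more than vha-6. In the V1 sector, vha-12 (the B subunit of the catalytic ring) rose from 174 ± 48.0 to 286 ± 28.1 normalised units (SD, n = 4), a log2 change of 0.75 ± 0.18 (SE, limma adjusted p = 0.00143). The catalytic A subunit gene vha-13 rose by 0.43 (adjusted p = 0.0201), the C subunit gene vha-11 by 0.46 (adjusted p = 0.0084) and the G subunit gene vha-10 by 0.37 (adjusted p = 0.00852) in limma. The H subunit has a pair of genes, of which vha-15 rose by 0.55 (limma adjusted p = 0.00358) and vha-18 differed by -0.22 (adjusted p = 0.402). The exposed wells of each of vha-10, vha-11, vha-12, vha-13 and vha-15 lay above all their controls. The D, E and F subunit genes vha-14, vha-8 and vha-9 differed by 0.25, 0.30 and 0.02 without passing.

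In the membrane sector the d subunit gene vha-16 rose from 117 ± 4.56 to 161 ± 14.6 normalised units (SD, n = 4), a log2 change of 0.45 (limma adjusted p = 0.0187). The proteolipid genes vha-2 and vha-3 encode near-identical proteins, and the sources used here do not say how reads were split between them. The log2 differences of the proteolipid genes vha-1, vha-2 and vha-3 were 0.21, 0.46 and 0.47, with limma adjusted p-values of 0.317, 0.0511 and 0.0705. The second kind of proteolipid, vha-4, differed by 0.02 and the small e subunit gene vha-17 by 0.29, both uncalled. The accessory subunit genes vha-19 and vha-20 rose by 0.38 (adjusted p = 0.0239) and 0.50 (adjusted p = 0.0226) in limma. At 2 g/L 0 of the 17 were called, in a contrast that called 0.486% of all genes, and their median was 0.16. Over all concentrations the slopes of vha-10, vha-11 and vha-15 were called, against 6.57% of all genes (3.80% upward). The count of 8 at 4 g/L fell to 4 without replicate 1 at 4 g/L or control replicate 2 and to 5 without control replicate 4. It rose to 13 with the term for runs and to 14 against the pooled reference, fits that called 27.0% and 48.6% of all genes. With 1 well left out, the calls over all genes ran from 1303 to 3345, against 2932 with all wells. The subunit counts were not set against the calls of each of these fits, so a loss particular to the pump cannot be told from a general one.

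**Figure D3:**
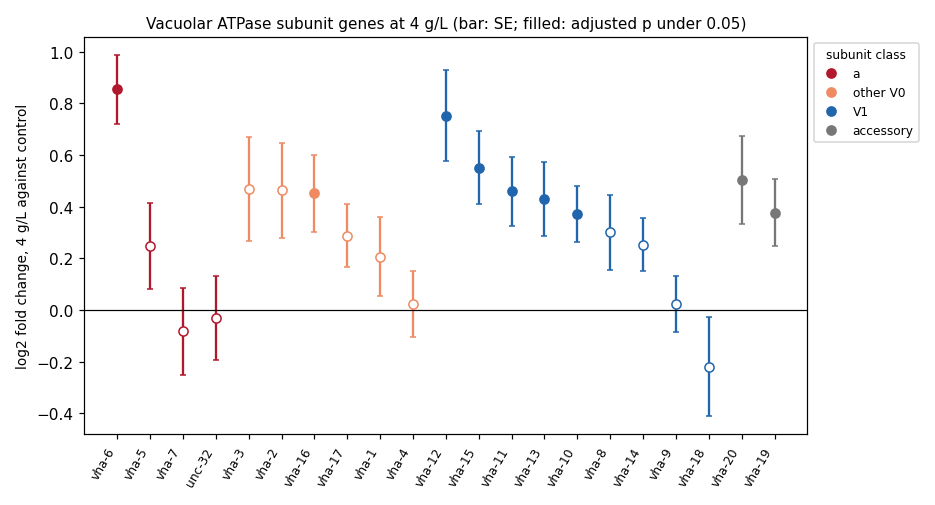
Log2 fold change at 4 g/L against control (vertical axis; bars are SE, 4 wells per group) of the 21 measured vacuolar ATPase subunit genes, by subunit class; filled symbols had a limma adjusted p under 0.05. The highest is vha-6 at 0.85, 8 of the other subunits outside the a class are filled, and vha-7 and unc-32 sit at -0.08 and -0.03.

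RNA came from whole worms, so more cells of a tissue, or a larger tissue, and more RNA per cell cannot be told apart. Genes marking the tissue of each a subunit were therefore set beside it. All 20 intestinal markers of the list were measured, so the tissue of vha-6 was present in the libraries, and 11 of them rose at 4 g/L while 1 fell, against 14.7% and 13.7% of all genes, with a median log2 change of 0.63. Without replicate 4 at 4 g/L 6 rose and 1 fell, against 6.26% and 6.40% of all genes in that fit. Their summed level ran from 6412 to 8704 normalised units in controls and from 8858 to 12676 at 4 g/L. The largest part of these sums was asp-1, named after its values were seen, with means of 4847 in controls and 6112 at 4 g/L. It was not called (0.35, limma adjusted p = 0.0911). The intermediate filament gene ifb-2 of the intestinal terminal web rose by 1.68 (limma adjusted p = 1.36e-07). The peptide transporter gene pept-1 rose by 1.33 (adjusted p = 6.1e-08) and the filament gene ifp-1 by 2.30 (adjusted p = 8.08e-06) in limma. The single marker that fell, named after its values were seen, was the ferritin gene ftn-1, which fell by 1.42 (limma adjusted p = 0.00168). Of the 20 markers, 6 rose by more than vha-6, and the fall of ftn-1 was also larger than the vha-6 change.

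Across the 60 libraries, log2 vha-6 had a Pearson correlation of 0.79 with the mean log2 level of the 20 intestinal markers. After the 15 group means were subtracted it was 0.60, a description over libraries that also share depth and scaling. In controls log2 vha-6 stood 2.00 ± 0.124 above the marker mean (range 1.89 to 2.14), and at 4 g/L 2.20 ± 0.132 (SD, n = 4, range 2.06 to 2.37). The 2 ranges overlap, and the marker mean itself was higher by 0.65 at 4 g/L. The part of these markers in the vha-6 result was not tested.

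A further list held genes of intestinal proton-coupled transport and of the defecation cycle, not all of which act on the luminal proton gradient. Of 7 measured, 4 rose, against 14.7% of all genes, and 0 fell, with a median log2 change of 0.63. Without replicate 4 at 4 g/L 2 of the 7 rose, against 6.26% of all genes in that fit. The 4 were pept-1, which takes up peptides together with protons, the inositol trisphosphate receptor gene itr-1 that paces the defecation cycle (1.07, limma adjusted p = 0.000151), the sodium-proton exchanger gene nhx-2 (0.66, adjusted p = 0.0261) and pbo-1, a calcineurin-like regulator (0.63, adjusted p = 0.00848). The fourth by p, nhx-2, was named after its values were seen. This list shares pept-1, nhx-2 and pbo-4 with the intestinal markers.

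Markers of the epidermis, the tissue of vha-5 and vha-7, were thin in these libraries. Of 20 listed, 9 were measured, 2 rose and 0 fell, with a median log2 change of 0.04, a count near the 14.7% of all genes called higher. Without replicate 4 at 4 g/L 2 rose and 1 fell, against 6.26% and 6.40% of all genes in that fit, and the median was -0.18. The GATA factor gene elt-3 rose by 1.09 (limma adjusted p = 0.00357), and the cuticle collagen gene bli-1 by 1.24 (adjusted p = 0.0039) from a control mean of only 3.31 normalised units. These 2 are not typical of the list, which ran from -0.69 to 1.24 and whose uncalled members differed in both directions. Summed epidermal levels were 171 to 209 in controls and 175 to 278 at 4 g/L. Among excretory canal markers, 8 of 12 were measured, 3 rose, against 14.7% of all genes, and 0 fell, with a median of 0.53. Without replicate 4 at 4 g/L 1 rose, against 6.26% of all genes in that fit. The canal aquaporin gene aqp-8 rose from 58.3 ± 7.66 to 143 ± 46.8 normalised units (SD, n = 4), a log2 change of 1.21 (limma adjusted p = 2.22e-05), followed by nhr-31 (0.74) and exc-6 (0.65). The vha-5 difference of 0.25 lay below 5 of these 8 genes. Over 60 libraries the correlation of vha-5 with the mean of the canal markers was 0.35 and with that of the epidermal markers 0.15. For vha-7 the correlation with the mean of the epidermal markers was 0.01.

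Neuronal markers were measured for 18 of 20 genes, of which 4 rose and 0 fell, with a median log2 change of 0.35. The count is near the 14.7% of all genes called higher. Without replicate 4 at 4 g/L it was 2, in a fit that called 6.26% of all genes higher. The neuropeptide convertase gene egl-3 rose by 1.05 (limma adjusted p = 0.00133) and the synaptotagmin gene snt-1 by 0.80 (adjusted p = 0.00661). Of the 18 markers, 14 had a log2 change above that of unc-32 at -0.03. The rest lay below it, down to -0.43, and none of those was called. In controls log2 unc-32 stood 1.69 to 1.85 above the mean of the neuronal markers, and at 4 g/L 1.16 to 1.68, without overlap. The correlation between unc-32 and that mean over 60 libraries was 0.01. Of the vesicle transporters that use the proton gradient, 3 of 7 were measured and none was called. The 2 with the highest level, vnut-1 and vglu-3, differed by -0.04 and 0.56. The markers' part in the unc-32 result was not tested.

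**Figure D4:**
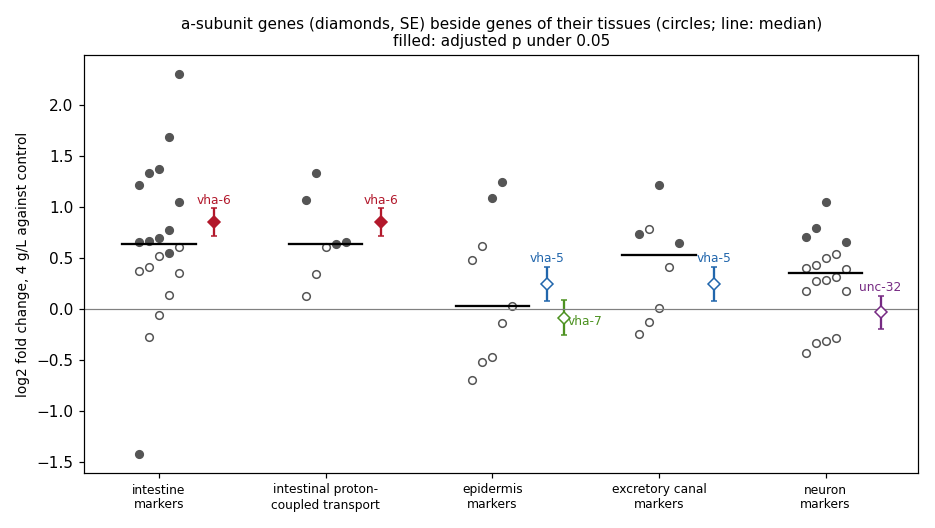
Log2 fold change at 4 g/L against control (vertical axis) of the marker genes of each tissue (circles; line at the median) with the a-subunit gene of that tissue beside them (diamonds; bars are SE, 4 wells per group); filled symbols had a limma adjusted p under 0.05. Diamonds for vha-6 lie above the medians of both intestinal lists at 0.63, and that of unc-32 lies below the neuronal median at 0.35.

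Lists for other tissues were counted at the same concentration, at which 14.7% of all genes rose and 13.7% fell. Muscle markers rose in 6 of 13 and fell in 0 (median 0.47), sperm markers rose in 4 of 12 and fell in 0 (median 0.67), and germ line markers rose in 0 of 15 and fell in 8 (median -0.44). Without replicate 4 at 4 g/L 2 muscle and 1 sperm markers rose and 5 germ line markers fell. That fit called 6.26% of all genes higher and 6.40% lower. Their part in the a-subunit results was not tested.

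Among genes tied to acidified compartments, 4 of 17 lysosomal genes rose and 4 fell, with a median log2 change of -0.02. These counts are near the 14.7% and 13.7% of all genes called. Without replicate 4 at 4 g/L they were 2 and 2, in a fit that called 6.26% of all genes higher and 6.40% lower. The acid ceramidase gene asah-1 rose by 0.91 (limma adjusted p = 0.000127), while the cathepsin gene cpl-1 fell by 0.89 (adjusted p = 0.000684) and the mucolipin gene cup-5 fell by 0.79 (adjusted p = 0.00195). Of 10 genes of the nutrient-sensing mTORC1 machinery that docks on the lysosomal pump, 0 rose and 4 fell, with a median of -0.22. Without that replicate 3 fell, against 6.40% of all genes. Among the 4 that fell with all wells were the Ragulator gene lmtr-3 (-0.86, adjusted p = 0.000134) and the Rag GTPase gene ragc-1 (-0.48, adjusted p = 0.00287) in limma. Of 8 genes of apical secretion and exosome release, the route linked to vha-5, none was called, and their median was -0.22. The 2 with the highest level, the syntaxin gene syx-5 and the Ral GTPase gene ral-1, differed by -0.24 and -0.29.

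The genes whose profiles over the 60 libraries were most like each a subunit differed between the 4. Among 4464 named genes with a mean of at least 20 normalised units, the closest to vha-6 were dct-18 (Pearson r = 0.86), the carboxypeptidase gene ctsa-1.2 (0.85), the aspartyl protease gene asp-3 (0.85), the neprilysin gene nep-17 (0.85) and the C-type lectin gene clec-63 (0.85). All 5 rose at 4 g/L, by 0.79 to 1.60 log2 units. After group means were subtracted, bcf-1 (0.77), iff-2 (0.75), nep-17 (0.74), asp-3 (0.74) and the collagen gene col-129 (0.72) came first, so nep-17 and asp-3 were in both lists.

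The other a subunits had other neighbours. For vha-7 they were ctf-18 (0.77), rbg-3 (0.71), spr-1 (0.70), ctf-4 (0.70) and ced-7 (0.70), none of them called at 4 g/L, and ctf-18 (0.79) and rbg-3 (0.79) stayed among the first 5 after subtraction of group means, joined by mys-4, bcas-2 and mma-1. For vha-5, vamp-8 (0.53), spp-18 (0.52), snf-9 (0.52), nrfl-1 (0.51) and gst-6 (0.51) were closest, and after subtraction endu-1, ugt-62, catp-3, spsb-1 and cyc-1, at 0.51 to 0.56. For unc-32 the dynein light chain gene dlc-1 (0.52), gly-20 (0.51), egrh-3 (0.50), oaz-1 (0.48) and exl-1 (0.48) led, and egrh-3, gly-20, dlc-1 and oaz-1 stayed after subtraction, joined by aak-2. Among the a subunits themselves, within-group correlations over the 60 libraries were 0.46 between vha-5 and unc-32, -0.45 between vha-6 and vha-7, and between 0.00 and 0.21 for the other pairs.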

How the data were processed

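RNA of 60 whole-worm samples was sequenced, and the authors deposited 1 table of normalised signal per gene and sample. Per the submitters' processing notes, reads were handled with STAR 2.7.10a on WBcel235 and, in an order the notes do not state, with HTSeq 2.0.1, UMI-tools 1.1.2, edgeR 3.36.0 and Trimmomatic 0.39; no source used here gives their settings or the normalization. Of the 10298 identifiers 10297 matched a gene name. The deposited signal could be written, for 100% of 617880 values within 0.0001 reads, as 1 plus whole reads times a scale per library and a factor of 0.445 to 3.18 per gene and replicate number, with 1.07% of values at 0 reads. Levels therefore carry that factor, and recovered reads served only as depth and as alternatives. No table of deposited counts was used.

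Values were tested as log2(value + 1), which understates changes of low genes, with limma 3.58.1 in R 4.3.3: 15 group means in 1 fit with an intensity trend, over 10293 genes reaching 5 in at least 4 libraries, with Benjamini-Hochberg adjustment over all of them. A gene is called at an adjusted p under 0.05. Slopes over concentration rank came from a second fit. Contrasts with the control share its 4 libraries. Pairs and shares were tested by exact two-sided permutation. The a-subunit genes, lists, tests and rules were chosen with earlier results of these data known. Named genes are the a subunits, all other measured subunits, up to 3 called genes per list with the smallest p (where none is called, the 2 with the highest mean), exceptions being marked in the text, and, for each a subunit, the 5 most correlated named genes. No 2 replicates agreed within sampling noise (lowest dispersion 1.63 times it, 90 pairs). Methods were tested on simulated data. There, among 10290 genes, the contrast of 4 g/L with the control recovered 9% of 100 changed 1.5-fold and 38% of 100 changed 2-fold. False calls numbered 2 each time. The measured contrast called 28.5% of 10293 genes, and recovery at such a share of calls was not tested. Alternatives changed the pseudocount (5 and 0.25), the filter (none, or 20), the scaling, the model, the reference and the libraries included.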

Additional observations from a re-analysis of the deposited data

Results flagged for a closer look

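In 4 of the 60 sets of 4 wells (4 genes in 15 groups), 1 well stood apart from the other 3 by more than Dixon's 95% critical share of the group's range. Chance gives this in about 1 of 20 groups. For vha-5 at 31 mg/L, replicate 2 read 62.3 normalised units, above 3 wells at 55.2, 55.4 and 56.0. For vha-6 at 0.25 g/L, replicate 2 read 333, above 293, 298 and 298. For unc-32 at 31 mg/L, replicate 4 read 114, above 76.5, 81.6 and 82.4, and this library also had a large residual spread over all genes. For unc-32 at 63 mg/L, replicate 1 read 101, above 68.1, 68.9 and 69.4. All 4 were the highest of their group, and none of these groups was called.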

How the results depend on the processing

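The vha-6 increase at 4 g/L was called under every alternative run, at 0.73 to 1.00 on the log2 scale (0.73 to 0.96 with 1 well left out), and it was the single a-subunit contrast called of 56 in each fit of all groups against the control. Thinned reads moved the median of all genes from -0.05 to 0.09, and vha-6 to 1.00. The vha-6 slope lost its call without 2 and 4 g/L (0.0214, adjusted p = 0.521), and with 1 replicate left out it ran from 0.0280 to 0.0531. The vha-6 step from 2 g/L lost its call with thinned reads (0.46) and without the libraries of large spread (0.35, adjusted p = 0.161), and ran from 0.43 to 0.49 with 1 replicate left out.

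For vha-5 the pooled reference (0.32) and the slope per g/L (0.0867) gained a call, and the rank slope turned to -0.0063 without 2 and 4 g/L and ran from -0.0042 to 0.0178 with 1 replicate left out. For vha-7 at 4 g/L the sign turned on recovered reads (0.0116, also with a replicate block) and with voom (0.0259), with -0.22 to 0.0485 when 1 well was left out. Its slope turned with the run term (-0.000268) and ran from -0.0087 to 0.0171. For unc-32 at 4 g/L the sign turned under median-ratio rescaling (0.00106), quantile normalization (0.0377), recovered reads (0.0639, also with the block), voom (0.0649), the run term (0.0963) and thinning (0.0569), with -0.11 to 0.0861 when 1 well was left out. Its step from 2 g/L turned to 0.00721 (median ratio), 0.0190 (quantile), 0.0516 (recovered reads, run term and block) and 0.0545 (voom), with -0.11 to 0.0826 when 1 replicate was left out. Its slope turned to 0.0023 (quantile), 0.0020 (recovered reads and block), 0.0030 (voom) and 0.0033 (run term), with -0.0095 to 0.0039 when 1 replicate was left out. None of these was called, and the cause of the turns was not tested.

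The genes called at 4 g/L numbered 2932, against 1131 with only the 2 groups fitted, 1712 on recovered reads, 1641 with voom, 859 thinned, 5002 with the pooled reference, 1478 without the libraries of large spread, and 1303 to 3345 with 1 well left out. Other subunits called numbered 8, against 13 with the run term, 13 with recovered reads and a replicate block, 14 with the pooled reference and 4 to 12 with 1 well left out. The run term and the pooled reference called 27.0% and 48.6% of all genes. The subunit counts with the replicate block on recovered reads and with 1 well left out were not set against the genes called in each fit. Of pairs at 4 g/L, the pooled reference gained calls for vha-5 minus vha-6 (-0.50), vha-5 minus vha-7 (0.36), vha-5 minus unc-32 (0.33), vha-6 minus vha-7 (0.86) and vha-6 minus unc-32 (0.82), and vha-7 minus unc-32 ran from -0.20 to 0.11 with 1 well left out. The same reference gained calls for the shares of vha-5 (-1.98 points), vha-6 (10.8), vha-7 (-4.35) and unc-32 (-4.47).

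The labels give no pairing by replicate number. On recovered reads, which lack the deposited factor per replicate number, residuals of same-numbered libraries correlated at a median of 0.11 over all groups (others -0.04) and as low as -0.32, and at -0.12 between control and 4 g/L (others 0.08), so not every pair exceeded 0.1. On the deposited values, which already carry that factor, the median for same-numbered libraries over all groups was -0.05. A replicate block fitted to them left vha-6 at 0.85 (limma adjusted p = 5.42e-06), called 2760 genes and changed no a-subunit call. Each replicate number occurs once per group, so the block could not move the estimate, and this fit says little about replicate effects. Exact permutation p-values of 4 wells against 4 cannot go below 0.0286. The part of depth in the uncalled genes was not tested. Chosen after seeing the data were the pooled reference for pairs, shares and 2 g/L, the slope without 2 and 4 g/L, the list counts without replicate 4 at 4 g/L, and the block on recovered reads.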
